A study of Mus musculus with 3 samples.

Results

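RNA from CD8+ T cells of 18-month-old mice was set against RNA from CD8+ T cells of 6-week-old mice after both had been cultured under the same resident-memory condition. The T cells came from spleen and lymph node of mice labelled wild type, called young TRM (6 weeks) and aged TRM (18 months) here, and the labels give neither strain nor sex. Both cultures were stimulated through CD3 and CD28 with antibodies (1 µg/ml) and also had 20 ng/ml of IL-15 and 5 ng/ml of TGF-beta, and both were described as day 3. A further sample of the study, young TCR, came from 6-week-old mice and received only the antibodies. Its values are set beside the others without a test, and age and cytokines both differ between it and aged TRM. The age comparison thus describes an activated culture of lymphoid T cells in which every group also had receptor stimulation, and not T cells taken from a tissue such as skin or gut. Genes were included if a level of at least 1 CPM (reads of a gene scaled to the size of the library) was reached in either sample, which kept 11575 of 17121 listed genes.

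Tissue-resident memory T cells (TRM) stay in a tissue instead of recirculating through blood and lymph nodes. TGF-beta induces the integrin chain CD103, which binds E-cadherin on epithelium, and IL-15 sustains memory CD8+ T cells through the IL-2 receptor beta chain and STAT5. CD8+ T cells kill with granzymes and perforin, secrete interferon-gamma and other cytokines, and answer type I interferon by inducing a large set of antiviral genes.

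There was 1 sample per age, so the spread between mice is unknown, no p-value is given, and the labels do not say how many mice gave each sample. The deposited table had 2 numbered columns per sample, and what the numbers stand for is not stated. Here they count as repeated measurements of the same sample; had they come from separate cultures or animals, their spread would be biological. Columns held 16084855 and 19937032 reads in young TRM and 20140249 and 20245228 in aged TRM, and a median gene differed by 1.05-fold between the columns of either sample. With columns read as repeats, a gap between the columns of the 2 ages shows nothing of the spread between mice. The words rose and fell are used of a gene if the log2 ratio of aged to young CPM, with 1 CPM added to each, was at least 1 in size and the 95% counting interval of the ratio excluded 1. These Clopper-Pearson intervals cover counting error only. Folds and their intervals are ratios of CPM without the added 1, so at low levels they are larger than the log2 ratios imply. Levels given as a single pair for a gene are the sums over columns, young TRM first. Under that rule 260 genes (2.25%) rose and 133 (1.15%) fell, which is 393 genes (3.4%) in either direction. All pairings of an aged with a young column gave more than a 2-fold change for 184 of the genes that rose (1.59% of those tested) and 95 of those that fell (0.821%). The columns of 1 sample set against each other gave 11 higher and 10 lower genes in young TRM and 12 and 8 in aged TRM. The median gene had a log2 ratio of -0.01, with 5691 genes above 0 and 5884 below. All gene lists used below were drawn up with earlier results of these data known, so counts within them are no independent evidence. The shares of 2.25% and 1.15% over all genes tested stand beside every list count below.

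Calls were most frequent among weakly expressed genes, and at 10 CPM or more 123 of 9053 genes (1.36%) rose and 91 (1.01%) fell. Between 1 and 10 CPM, 137 of 2522 genes (5.43%) rose and 42 (1.67%) fell. Between 100 and 1000 CPM, 15 of 2489 rose and 15 fell, which is 0.603% in each direction. Of 105 genes of at least 1000 CPM, 1 rose, the granzyme Gzmb, and 2 fell, Samhd1, a phosphohydrolase that breaks down nucleotides, and Gbp2, an interferon-induced GTPase. Gbp2 is described with its family. Samhd1 was at 1183 and 1186 CPM in the young columns and 521 and 499 in the aged columns, 2.32-fold lower (interval 2.28 to 2.36).

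**Figure D1:**
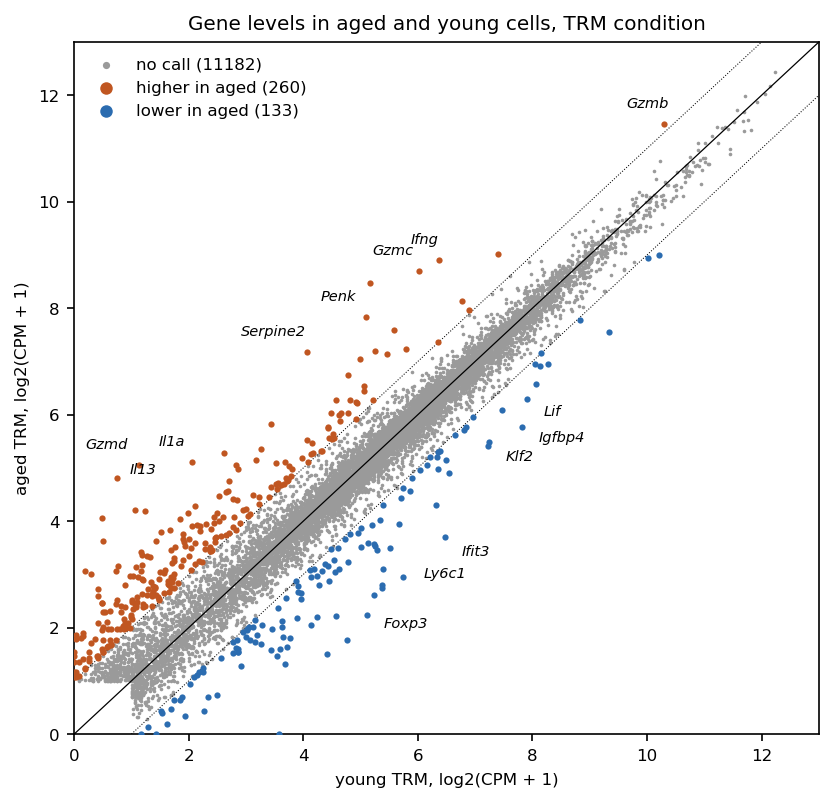
Each point is 1 of the 11575 genes tested, with log2(CPM + 1) in young TRM on the x axis and in aged TRM on the y axis; columns of a sample were summed. Orange points are the 260 genes that rose, blue points the 133 that fell, and most of the other genes lie close to the diagonal.

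Both samples carried the RNA of CD8+ T cells. Cd8a, a chain of the CD8 co-receptor, was at 1876 and 1777 CPM in young TRM and 1663 and 1602 CPM in aged TRM, and Cd8b1 was at 593 and 518 CPM. None of 10 T cell identity genes was called. Cd4 was at 12.4 and 11.6 CPM. Summed over its list, natural killer and innate lymphoid markers were at 241 CPM in young and 266 CPM in aged TRM, and myeloid markers at 146 and 118 CPM, with no member called in either list. The natural killer list holds Eomes, described below among factors of effector and memory fate, so its sum does not measure natural killer cells alone. Of 13 listed B and plasma cell markers, 9 were tested and 3 rose, against 2.25% of all genes tested. Of the 9, 2 reached 10 CPM, and in every pairing of columns 1 rose. Among those that rose were Ms4a1 (0.426 to 1.89 CPM) and Pax5 (0.199 to 1.70 CPM). The Ms4a1 call was lost in the second columns alone. The summed level of the list was 59.1 CPM in young and 95.4 CPM in aged TRM. Of the red cell and platelet genes, 4 were tested and Hbb-bt, a beta globin, rose from 2.50 to 6.15 CPM, with a list sum of 4.68 and 11.6 CPM. The Hbb-bt call was lost in the first columns alone. None of 3 tested stromal genes and none of 4 tested Y-linked genes was called, and no gamma-delta T cell marker reached 1 CPM. The part of these other cells in the results below was not tested, and in bulk RNA fewer cells of a type and less RNA per cell cannot be told apart.

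More genes of secreted effectors rose than fell. Of 15 effector cytokines tested, 6 rose and 2 fell (median log2 ratio 0.64). Ifng, the type II interferon, was at 82.9 and 81.4 CPM in the young columns and at 476 and 479.7 CPM in the aged columns. Both aged columns stood far above both young ones, and the summed level was 5.82-fold higher (interval 5.59 to 6.05). Young TCR had 103 CPM. Penk, the precursor of enkephalin peptides, went from 35.2 and 31.6 CPM to 228 and 228 CPM, 6.86-fold higher (interval 6.45 to 7.29). Spp1, which encodes the secreted phosphoprotein osteopontin, was at 37.9 and 36.8 CPM and then 153 and 139 CPM, a 3.91-fold rise. The colony-stimulating factor Csf2 rose 5.65-fold from 3.29 to 18.6 CPM. From under 1 CPM in young TRM rose Il10, an inhibitory cytokine (0.965 to 6.86 CPM), and Il3, a growth factor of myeloid cells (0.426 to 3.05 CPM).

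Both cytokines of this list that fell belong to the IL-6 family and signal through gp130. Lif was at 237 and 241 CPM in young TRM and at 75.8 and 79.4 CPM in aged TRM, 3.08-fold lower (interval 2.96 to 3.21), and young TCR had 63.3 CPM. Osm was at 79.8 and 79.5 CPM and then 34.0 and 37.4 CPM, 2.23-fold lower. The young and aged columns did not overlap for either gene. Tnf (44.7 and 27.4 CPM) and Ltb, a membrane-bound member of the same family (298 and 175 CPM), were not called.

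The type 2 and type 17 cytokines that rose were each under 1 CPM in young TRM. Of 9 tested type 2 genes, 4 rose and 0 fell. Il13 was at 0.572 and 0.769 CPM in the young columns and at 26.0 and 28.1 CPM in the aged columns, 39.7-fold higher (interval 26.5 to 62.2). Il24 (0.318 and 0.462 against 9.91 and 21.4 CPM) and Il9 (0.254 and 0.410 against 2.71 and 8.49 CPM) also rose, but their aged columns lay more than 2-fold apart. The chemokine receptor Ccr4, a receptor for CCL17 and CCL22, rose from 11.8 to 33.6 CPM. Of 10 type 17 genes, 5 rose and 1 fell, against 2.25% and 1.15% of all genes tested. In every pairing of columns 2 rose and 0 fell. Of the 10, 5 reached 10 CPM, and of all genes between 1 and 10 CPM 5.43% rose. Il21 was at 0.0636 and 0.154 CPM and then 2.61 and 2.55 CPM. Il17a was at 0.191 and 0.615 CPM and then 2.32 and 2.50 CPM, a low level in either sample. For Il22 the aged columns were at 0.444 and 4.86 CPM against 0 and 0.0513 CPM, so the size of its rise rests on 1 column. Batf (11.2 to 24.7 CPM) and Batf3 (8.32 to 21.0 CPM), basic leucine zipper factors, rose as well, and the receptor Ccr6 fell from 3.75 to 1.35 CPM. The Ccr6 call was lost when libraries were scaled by their totals.

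Chemokine genes followed the cytokines: 5 of 10 rose, 4 of them in every pairing of columns, and 0 fell (median log2 ratio 0.99). Ccl3, an inflammatory chemokine, was at 29.3 and 31.7 CPM in young TRM and at 128 and 135 CPM in aged TRM, 4.29-fold higher. Ccl9 was at 5.72 and 4.97 CPM and then 22.1 and 22.8 CPM, and its fold of 4.23 was of similar size. Ccl4, a close relative of Ccl3, rose from 20.6 to 53.6 CPM, Ccl5 from 4.74 to 15.0 CPM and the CCR6 ligand Ccl20 from 1.79 to 4.82 CPM. Xcl1, which attracts cross-presenting dendritic cells, had the highest level per length of the chemokines named here, 1003 and 1979 TPM (reads scaled to transcript length and library size). In CPM it was at 244 and 466, and its log2 ratio of 0.93 stayed short of a call. The interferon-induced chemokine Cxcl10 was at 14.4 and 7.72 CPM.

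**Figure D2:**
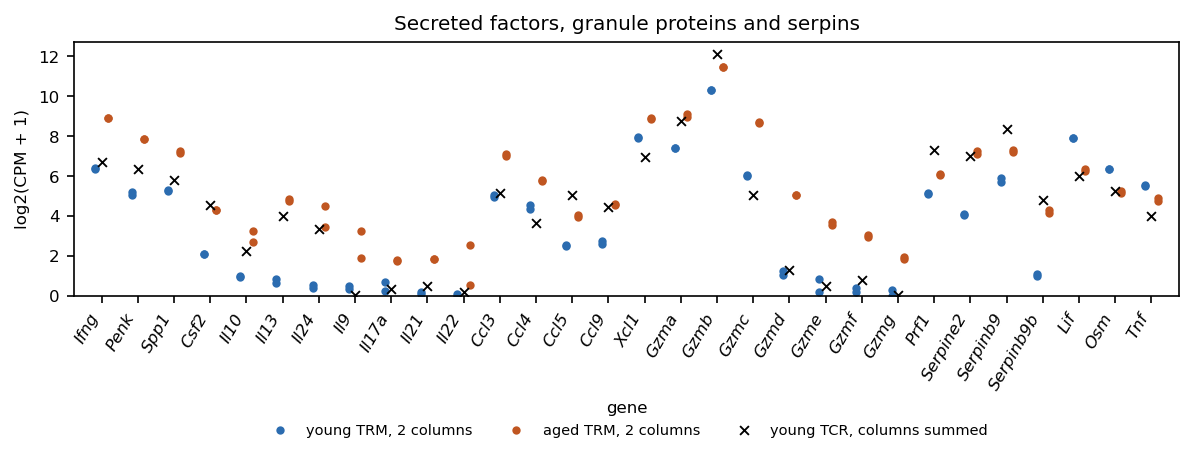
Level of secreted, granule and inhibitor genes as log2(CPM + 1) on the y axis, with genes on the x axis; dots are the 2 columns of young TRM (blue) and aged TRM (orange), and crosses are young TCR with columns summed. Ifng, Penk, Gzmd, Serpine2 and Il13 have both aged dots far above both young dots, whereas Lif and Osm have them below.

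Most granzymes rose. Of 10 granzyme and perforin genes tested, 7 rose and 0 fell, and all 7 rose in every pairing of columns. The median log2 ratio was 1.68, against -0.01 over all genes tested, and the summed level went from 1525 to 3865 CPM. Gzmb, which cleaves caspases in target cells, was at 1258 and 1246 CPM in the young columns and at 2783 and 2830.3 CPM in the aged columns, 2.24-fold higher (interval 2.22 to 2.27). Young TCR had 4393 CPM of Gzmb. Gzma, a tryptase, was at 169.6 and 165 CPM and then 493 and 540.5 CPM, 3.10-fold higher. Gzmc was at 62.6 and 64.3 CPM and then 420.3 and 406 CPM, 6.50-fold higher. Per transcript length, Gzmb led the granzymes named here at 1649 TPM in young and 3824 TPM in aged TRM. Gzma followed at 387 and 1238 TPM, and Gzmc at 138 and 928 TPM. Prf1, the pore-forming perforin, was at 34.8 and 33.6 CPM and then 67.6 and 64.9 CPM, a log2 ratio of 0.94 that was not called, and Gzmk was at 5.73 and 7.35 CPM.

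Granzymes close to 0 in young TRM had the largest ratios. Gzmd was at 1.40 and 1.03 CPM in the young columns and 31.9 and 32.5 CPM in the aged columns, 27.0-fold higher (interval 19.9 to 37.6). Gzme was at 0.763 and 0.154 CPM against 10.8 and 12.0 CPM, and Gzmf at 0.127 and 0.308 against 6.76 and 7.36 CPM. Gzmg was at 0 and 0.205 CPM against 2.81 and 2.60 CPM. In young TCR, Gzmd was at 1.41 CPM, Gzme at 0.419 CPM and Gzmf at 0.715 CPM. The genes from Gzme to Gzmb lie together on chromosome 14 of the mouse assembly GRCm38.p6, from chr14:56117619-56120625 for Gzme to chr14:56258836-56262334 for Gzmb. The mast cell protease gene Mcpt1, which lies before them at chr14:56017964-56020391, rose from 2.19 to 13.3 CPM. Between it and Gzme lie Mcpt2, at 4.06 and 6.67 CPM, and Mcpt8, at 1.67 and 3.22 CPM, and neither was called. These granzymes are close paralogs. The treatment of reads that match more than 1 of them is not stated, so the split between them is uncertain.

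Of 14 other granule genes, 3 rose and 0 fell. Ctla2a, an inhibitor of cysteine proteases, was at 109 and 106 CPM in young TRM and 278 and 284 CPM in aged TRM, 2.61-fold higher. Its close relative Ctla2b rose from 23.9 to 57.8 CPM, and Cst7, the cystatin F that restrains granule cathepsins, rose from 36.1 to 76.5 CPM. Nkg7, a granule membrane protein, was at 417 and 426 CPM.

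Protease inhibitors of the serpin family rose beside the proteases: 4 of 10 rose and 0 fell. Serpinb9, which inhibits granzyme B inside the killer cell, was at 50.4 and 57.7 CPM in young TRM and 144 and 154 CPM in aged TRM, 2.73-fold higher. Its paralog Serpinb9b was at 1.02 and 1.13 CPM and then 18.3 and 16.5 CPM, 16.1-fold higher (interval 11.6 to 23). Reads may be shared between Serpinb9 and Serpinb9b, so their split is uncertain. Serpinb6b rose 3.23-fold from 43.2 to 139 CPM. These 3 genes are neighbours on chromosome 13, between chr13:32956811-32979067 for Serpinb6b and chr13:33027414-33040588 for Serpinb9b. Serpine2, a secreted inhibitor of thrombin and plasminogen activators that lies on another chromosome, was at 15.9 and 15.6 CPM and then 138 and 149 CPM, 9.12-fold higher (interval 8.36 to 9.97). Young TCR had 125 CPM of Serpine2.

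Of 18 inhibitory receptors and TOX factors 2 rose and 0 fell (median log2 ratio 0.13). Havcr2, which encodes TIM-3, was at 7.88 and 8.15 CPM in young TRM and 35.3 and 33.3 CPM in aged TRM, 4.27-fold higher (interval 3.75 to 4.86). Cd160 rose from 18.7 to 38.8 CPM. Lag3, a receptor for MHC class II, was at 118 and 233 CPM with a log2 ratio of 0.98. Pdcd1, which encodes PD-1, was at 42.9 and 74.9 CPM, and Tox, a nuclear factor of exhausted T cells, at 17.4 and 15.9 CPM. None of these 3 was called.

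Among natural killer cell receptors, 5 of 23 rose, 1 of them in every pairing of columns, and 0 fell (median log2 ratio 0.54). Klrc1, the inhibitory NKG2A chain, rose 2.12-fold from 117 to 249 CPM. Klre1 rose from 11.6 to 24.9 CPM, Klra3 from 6.67 to 17.5 CPM and Klra1 from 2.24 to 5.66 CPM, and the fifth was Cd160. The calls of Klra1, Klre1 and Cd160 were lost in the first columns alone, and the Klra genes resemble each other in sequence, so their split is uncertain. Klrd1, which pairs with NKG2A, was at 195 and 387 CPM and the activating receptor Klrk1 (NKG2D) at 173 and 329 CPM, with log2 ratios of 0.99 and 0.92 that stayed short of a call.

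Of 19 TNF receptors and co-stimulators, 1 rose and 2 fell. Tnfrsf8, which encodes CD30, was at 1.02 and 1.64 CPM in young TRM and 15.2 and 19.1 CPM in aged TRM, 12.6-fold higher (interval 9.40 to 17.3), and young TCR had 77.6 CPM. Tnfrsf11a, which encodes RANK, the receptor of the osteoclast factor RANKL, was at 35.4 and 37.3 CPM and then 5.18 and 5.01 CPM, 7.16-fold lower (interval 6.18 to 8.34). In young TCR it was at 0.321 CPM. Tnfrsf25, the death receptor DR3, fell from 7.10 to 2.93 CPM.

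The receptor chains of the added IL-15 were not called. Il2rb, the signalling chain that binds IL-15, was at 1245 and 1119 CPM and Il15ra at 20.2 and 15.4 CPM. Of 19 genes of IL-2, IL-7 and IL-15 signalling none rose and 1, Osm, fell. Il7r was at 109 and 203 CPM (log2 ratio 0.89) and Il2ra at 1117 and 1518 CPM. In the list of IL-1, IL-12 and IL-18 signalling, 2 of 16 rose. They were the inflammatory caspase Casp1, from 5.88 to 20.4 CPM, and Casp4, which senses intracellular lipopolysaccharide, from 6.16 to 20.0 CPM. The alarmin cytokine Il1a, a member of the senescence list, was at 3.56 and 2.87 CPM in the young columns and 24.8 and 42.3 CPM in the aged columns, 10.6-fold higher (interval 8.70 to 12.9), whereas young TCR had 0.247 CPM.

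Genes of the type I interferon response were lower in aged TRM without exception among those tested. All 43 had a log2 ratio below 0, 21 of them fell and none rose, and 18 fell in every pairing of columns. The median log2 ratio was -0.97, and the summed level went from 5570 to 3174 CPM. These genes are switched on by ISGF3, a transcription factor complex that binds the interferon-stimulated response element. Its core, GAAA and GAAA with any 2 bases between, was searched on both strands of RefSeq promoter windows (GRCm38.p6), each from 250 bases before to 50 after a start site. The matches below show the element in 5 genes that fell and, last, in Bst2 (tetherin, which holds virus particles at the cell surface), which was not called. Each stretch lies before the start site on the gene's own strand, and capitals mark matches to the core, overlapping ones included.
Ifit3, chr19:34583343-34583446 (plus strand): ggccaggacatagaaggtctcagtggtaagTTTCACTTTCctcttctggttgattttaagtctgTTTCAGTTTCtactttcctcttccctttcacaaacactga
Ifit1, chr19:34640755-34640843 (plus strand): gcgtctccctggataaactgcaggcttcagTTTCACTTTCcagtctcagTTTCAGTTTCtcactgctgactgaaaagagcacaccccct
Isg15, chr4:156200845-156200926 (minus strand): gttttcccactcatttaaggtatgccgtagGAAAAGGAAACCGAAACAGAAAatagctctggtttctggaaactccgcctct
Oas3, chr5:120777695-120777764 (minus strand): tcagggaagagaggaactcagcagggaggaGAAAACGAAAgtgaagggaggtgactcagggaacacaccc
Ifi213, chr1:173599306-173599375 (minus strand): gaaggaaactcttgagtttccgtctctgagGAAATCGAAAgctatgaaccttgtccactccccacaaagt
Bst2, chr8:71537557-71537632 (minus strand): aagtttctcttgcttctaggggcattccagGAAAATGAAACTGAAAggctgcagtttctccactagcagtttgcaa

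In Ifit3 the nearer match ended 112 bases before the start site, and the stretch of its paralog Ifit3b at chr19:34607739-34607842 had the same letters. In Isg15, 3 overlapping matches ran together. The stretch of Ifi213 was also that of Ifi208, at chr1:173673577-173673646 on the plus strand. A match was present for 18 of 34 tested interferon genes with a promoter entry (52.9%), against 355 of 9353 tested genes with an entry (3.8%) and 1079 of all 27025 genes with an entry (3.99%). All of these counts cover only genes with a promoter entry. Within the interferon list a match was present in 11 of 17 such genes that fell (64.7%) and in 7 of 17 that were not called (41.2%). Outside the list, 9 of 78 such genes that fell had a match (11.5%), and of 192 such genes that rose, out of 260, 10 did (5.21%). The AP-1 core TGANTCA, searched in the same way, was present in 30 of the 192 genes with an entry that rose (15.6%) and in 14 of the 95 with an entry, out of 133, that fell (14.7%), against 561 of 9353 tested genes with an entry (6.0%). These are counts of letters in a window and show no binding.

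The interferon genes differed widely in how far they fell. Ifit3, a sensor-associated antiviral protein whose promoter is printed above, was at 86.3 and 88.9 CPM in the young columns and 12.0 and 12.1 CPM in the aged columns, 7.28-fold lower (interval 6.61 to 8.02). Ifit1, which binds viral RNA caps, was at 19.3 and 22.1 CPM and then 6.26 and 6.33 CPM, 3.30-fold lower. Young TCR had 4.81 CPM of Ifit3. Rtp4 was at 12.6 and 11.2 CPM and then 1.48 and 1.52 CPM, 7.87-fold lower. Of the DNA-sensing PYHIN family, Ifi213 was at 41.4 and 39.8 CPM and then 6.95 and 4.91 CPM, and Ifi208 at 39.6 and 42.1 against 8.68 and 6.58 CPM. Ifi206 fell from 79.0 to 18.8 CPM. Reads may be shared within the Ifit3 pair and among these Ifi genes, so each split is uncertain.

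Genes of other branches of the response also fell. Isg15, a ubiquitin-like protein, was at 7.88 and 8.0 CPM in young TRM and 1.92 and 2.75 CPM in aged TRM. Oas3, which makes the second messenger that activates RNase L, was at 39.2 and 35.6 CPM and then 10.5 and 10.6 CPM, 3.52-fold lower, and young TCR had 35.6 CPM. Isg20, an antiviral exonuclease, was at 89.4 and 94.0 CPM and then 28.1 and 29.6 CPM, 3.19-fold lower. Irf7, the factor that amplifies interferon production, was at 30.1 and 32.2 CPM and then 11.9 and 8.98 CPM, 3.00-fold lower. For none of these did an aged column reach a young one. Stat2, a subunit of ISGF3, was not called, at 122 and 86.2 CPM (log2 ratio -0.50). Bst2 was at 38.3 and 35.0 CPM, a log2 ratio of -0.12.

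Families induced by interferon-gamma as well as type I interferon were also lower. Of 17 guanylate-binding proteins and immunity-related GTPases, which attack the vacuoles of intracellular pathogens, all 17 had a log2 ratio below 0 and 2 fell (median log2 ratio -0.75), with sums of 9194 and 5656 CPM. Gbp2 was at 1067 and 1002 CPM and then 496 and 487 CPM, 2.10-fold lower, and Gbp10 was 2.35-fold lower. The Gbp genes are similar in sequence. All 22 genes of MHC class I presentation were below 0 as well (median log2 ratio -0.42), but 1, the non-classical H2-T24, fell, from 57.1 to 22.8 CPM. The classical gene H2-K1 was at 2787 and 1917 CPM and the shared light chain B2m at 2778 and 2023 CPM. None of 8 Schlafen genes was called (median log2 ratio -0.08).

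**Figure D3:**
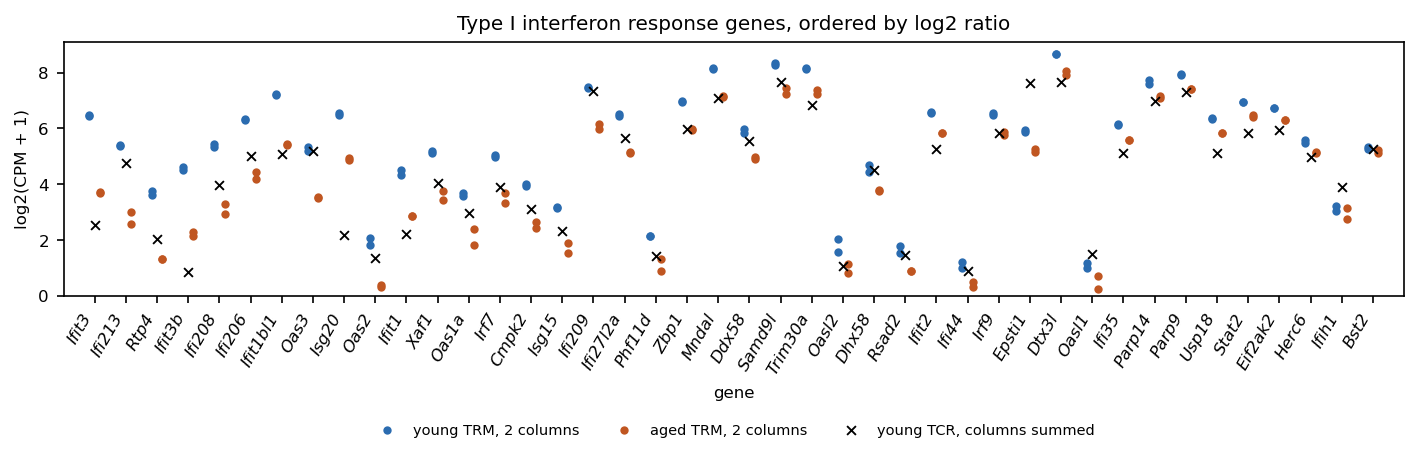
Level of interferon-induced genes as log2(CPM + 1) on the y axis, with genes on the x axis; dots are the 2 columns of young TRM (blue) and aged TRM (orange), and crosses are young TCR with columns summed. Genes run from the lowest log2 ratio on the left, Ifit3, to the one closest to 0 on the right, Bst2.

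Genes of exit from tissue and of lymph node homing were lower in aged TRM. Of 17 tested, all had a log2 ratio below 0 and 5 fell (median log2 ratio -0.74). Klf2, a transcription factor that drives S1pr1, was at 158 and 145 CPM in young TRM and 44.2 and 43.5 CPM in aged TRM, 3.44-fold lower (interval 3.26 to 3.63). S1pr1, the receptor that leads T cells out of tissue along a lipid gradient, was at 52.9 and 48.0 CPM and then 14.1 and 14.9 CPM, 3.46-fold lower. The young and aged columns did not overlap for either gene. Young TCR had 35.0 CPM of Klf2 and 51.4 CPM of S1pr1. Cx3cr1, a receptor of circulating effector cells, was at 37.4 and 38.3 CPM and then 10.5 and 9.52 CPM, 3.79-fold lower, and Klf3 fell from 39.5 to 15.2 CPM. Ccr7, the lymph node chemokine receptor, was at 500.2 and 346 CPM and was not called. Of 14 chemokine and homing receptors, Ccr4 and Gpr15 rose and Ccr6 fell. Gpr15, a homing receptor for the large intestine, was at 6.48 and 6.10 CPM and then 27.5 and 33.6 CPM, 4.87-fold higher (interval 4.22 to 5.65).

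Naive and stem-like genes included 4 that fell among 24 tested, and none rose. Igfbp4, a binding protein of insulin-like growth factors, was at 231 and 221 CPM in young TRM and 55.0 and 51.7 CPM in aged TRM, 4.23-fold lower (interval 4.03 to 4.44), and young TCR had 6.27 CPM. Ramp1, a co-receptor for the neuropeptide CGRP, was at 11.4 and 10.9 CPM and then 1.92 and 2.16 CPM, 5.45-fold lower. Id3, a repressor of E proteins, fell from 31.0 to 13.7 CPM. Tcf7, which encodes TCF-1 (476 and 355 CPM), and its relative Lef1 (114 and 84.9 CPM) were not called. Of 7 Ly6 surface proteins 3 fell and none rose. Ly6c1 was at 56.8 and 48.7 CPM and then 8.09 and 5.30 CPM, 7.81-fold lower (interval 6.88 to 8.91). Ly6c2 fell from 306 to 124 CPM and Ly6k from 3.07 to 0.910 CPM. Ly6c1 and Ly6c2 are near copies, so their split is uncertain. In the list of memory-like cells 2 of 20 rose, Ccl5 and Klrc1, and 3 fell, Ly6c1 and Ly6c2 among them. Cd44, a marker of memory cells, was at 415 and 676 CPM and was not called.

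Genes of tissue residency did not move as a group: 3 of 26 rose and 1 fell (median log2 ratio 0.04). Itgae, the CD103 chain, was at 618 and 595 CPM in young TRM and 314 and 326 CPM in aged TRM. Its log2 ratio of -0.92 was not called. Cdh1, the E-cadherin that CD103 binds, fell from 80.8 to 38.3 CPM, a call that was lost in the deposited TPM values. Cd69, which retains cells by opposing S1PR1, was at 186 and 115 CPM, Itga1 (CD49a) at 4.54 and 6.54 CPM and the chemokine receptor Cxcr6 at 47.2 and 74.7 CPM, with no call for any of them. Prdm1, which encodes the repressor Blimp-1, rose from 3.09 to 7.45 CPM. Rgs2, a brake on G protein signals and the only called gene of 10 in its family list, rose from 9.51 to 21.0 CPM, and the third to rise was Gzmb, which the list shares with the granzymes. The Prdm1 call was lost in TPM, and the Prdm1 and Rgs2 calls in the second columns alone. The repressor gene Hic1 was at 18.1 and 36.7 CPM with a log2 ratio of 0.98 and no call. None of 16 integrins was called.

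In the TGF-beta pathway 3 of 20 genes rose, against 2.25% of all genes tested, and 1 did so in every pairing of columns. Tgfbr1, Tgfbr2 and Smad3 did not pass the rule. Tgfb3, a ligand, rose from 5.90 to 15.9 CPM. Ltbp3, which stores latent TGF-beta in the matrix, rose from 1.56 to 5.07 CPM, and Acvr1, a receptor kinase of the same superfamily, from 1.56 to 4.28 CPM, and both calls were lost in the second columns alone. Ltbp3 and Acvr1 lie between 1 and 10 CPM, where 5.43% of all genes rose. Tgfbr1 was at 158 and 90.4 CPM (log2 ratio -0.80) and Tgfbr2 at 239.6 and 183 CPM. Smad3, which carries the signal to the nucleus, was at 32.4 and 16.9 CPM (-0.90). Some genes that TGF-beta induces in many cells differed little. Smad7 was at 68.9 and 56.0 CPM, Skil at 346 and 298 CPM and Pmepa1 at 142 and 125 CPM. Itgae, the lowest of the list, had a log2 ratio of -0.92. Of the 20 genes, 9 were above 0 and 11 below (median log2 ratio -0.08). The list summed to 2685 CPM in young TRM, 2155 CPM in aged TRM and 689 CPM in young TCR.

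**Figure D4:**
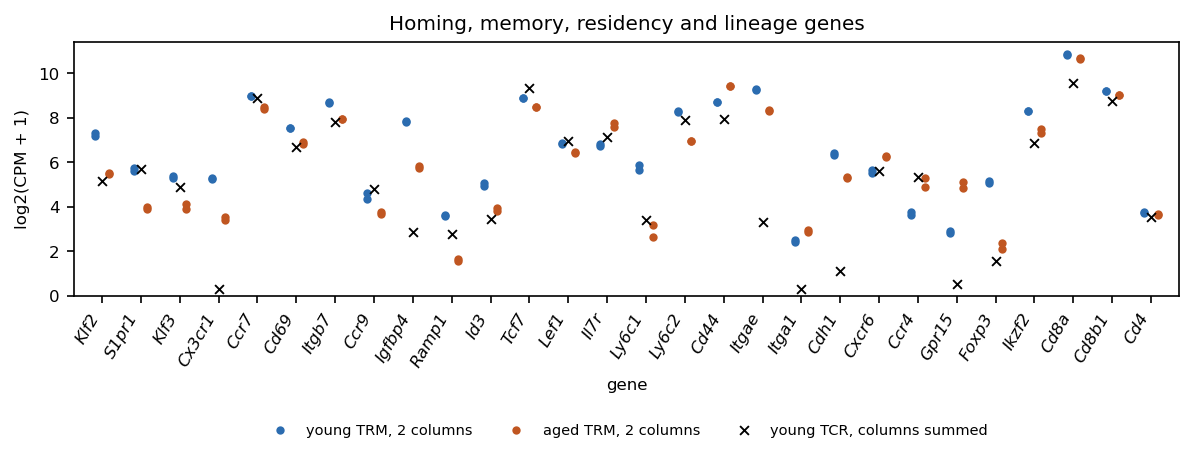
Level of homing, memory, residency and lineage genes as log2(CPM + 1) on the y axis, with genes on the x axis; dots are the 2 columns of young TRM (blue) and aged TRM (orange), and crosses are young TCR with columns summed. Klf2, S1pr1, Cx3cr1, Igfbp4 and Foxp3 have both aged dots below both young dots, Gpr15 has them above, and Cd8a, Cd8b1 and Cd4 lie close together.

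The largest fall among the lineage lists was that of a regulatory T cell gene. Foxp3, the factor that defines regulatory T cells, was at 32.8 and 34.2 CPM in young TRM and 3.26 and 4.17 CPM in aged TRM, 9.04-fold lower (interval 7.63 to 10.8), and young TCR had 1.95 CPM. It was the only one of 7 tested CD4 and regulatory T cell markers to be called, and Cd4 stayed at 12.4 and 11.6 CPM. Ikzf2 (Helios) was at 315 and 168 CPM with a log2 ratio of -0.90 and no call. Lrrc32, a gene of regulatory T cells that is not among these markers, also fell and is described below.

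Of 29 transcription factors of effector and memory fate, Prdm1 rose and Id3 and Klf2 fell, against 3.4% of all genes called in either direction (list median log2 ratio -0.11). Tbx21 (T-bet) was at 117 and 112 CPM, Eomes at 93.5 and 65.1 CPM and Runx3 at 216 and 219.5 CPM, none of them called. Of 16 AP-1 factors 3 rose and 1 fell, against 2.25% and 1.15% of all genes tested. In every pairing of columns 1 rose and 1 fell. Batf, Batf3 and the stress factor Atf3 (12.5 to 31.9 CPM) rose, and Fosb fell from 7.38 to 2.41 CPM. The Batf3 call was lost in the first columns alone, and the Batf, Batf3 and Fosb calls with 5 CPM added. No gene was called among 26 of receptor signalling, 24 activation factors or 14 feedback phosphatases and Sprouty genes. In the hypoxia list 1 of 20 rose, Epas1, which encodes HIF-2 alpha, from 1.31 to 6.44 CPM.

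Cell cycle and replication genes stayed near the level of young TRM. None of 30 cell cycle genes (median log2 ratio -0.04) and none of 30 replication genes (0.01) was called, and Mki67, which encodes the proliferation marker Ki-67, was at 1048 and 890.4 CPM. Of 15 inhibitors and G1 regulators 2 rose. Cdkn1a, which encodes the inhibitor p21, was at 48.9 and 45.7 CPM in young TRM and 177 and 206 CPM in aged TRM, 4.06-fold higher (interval 3.85 to 4.28), and young TCR had 157 CPM. The other was cyclin D1, Ccnd1, from 1.96 to 7.13 CPM. Cdkn2a, which encodes p16 and is a common marker of senescence, was under 1 CPM in both samples, at 0.199 and 0.959 CPM, and was not tested. In the deposited TPM it was called higher, with a log2 ratio of 1.14. Of 20 p53 and senescence genes 3 rose, Cdkn1a, Il1a and the receptor gene Eda2r (0.114 to 1.67 CPM), and 0 fell, and none of 22 BCL2 family and death genes was called. In a list of 28 genes tied to T cell ageing, 11 rose and 0 fell (median log2 ratio 0.71). It shares chemokines and granule genes with the lists above. Like all the other lists it was drawn up with earlier results of these data known, so it is no independent evidence.

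In the metabolic and protein synthesis lists of this paragraph, medians stayed below the calling threshold in size and no gene was called. Glycolysis (24 genes, median log2 ratio 0.09), the respiratory chain (61 genes, 0.07) and the proteasome (31 genes, 0.12) had no called gene. Of 32 genes of cholesterol and fatty acid synthesis 31 had a log2 ratio above 0, with a median of 0.32 and no call, and Hmgcs1, the enzyme that makes HMG-CoA, was at 293 and 408 CPM. Scd1, a fatty acid desaturase, was at 155 and 308 CPM with a log2 ratio of 0.98. Cytosolic ribosomal protein genes were lower in 76 of 79 cases (median log2 ratio -0.24), summing to 85213 CPM in young and 73613 CPM in aged TRM. By contrast, all 30 ribosome biogenesis genes, which act in the nucleolus, were above 0 (median log2 ratio 0.22), and mitochondrial ribosomal proteins had a median of 0.11. None of these was called. Heat shock genes and chaperones had a median of 0.22 with 25 of 28 above 0. Scaling by read totals alone moved the median of all genes to 0.03.

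**Figure D5:**
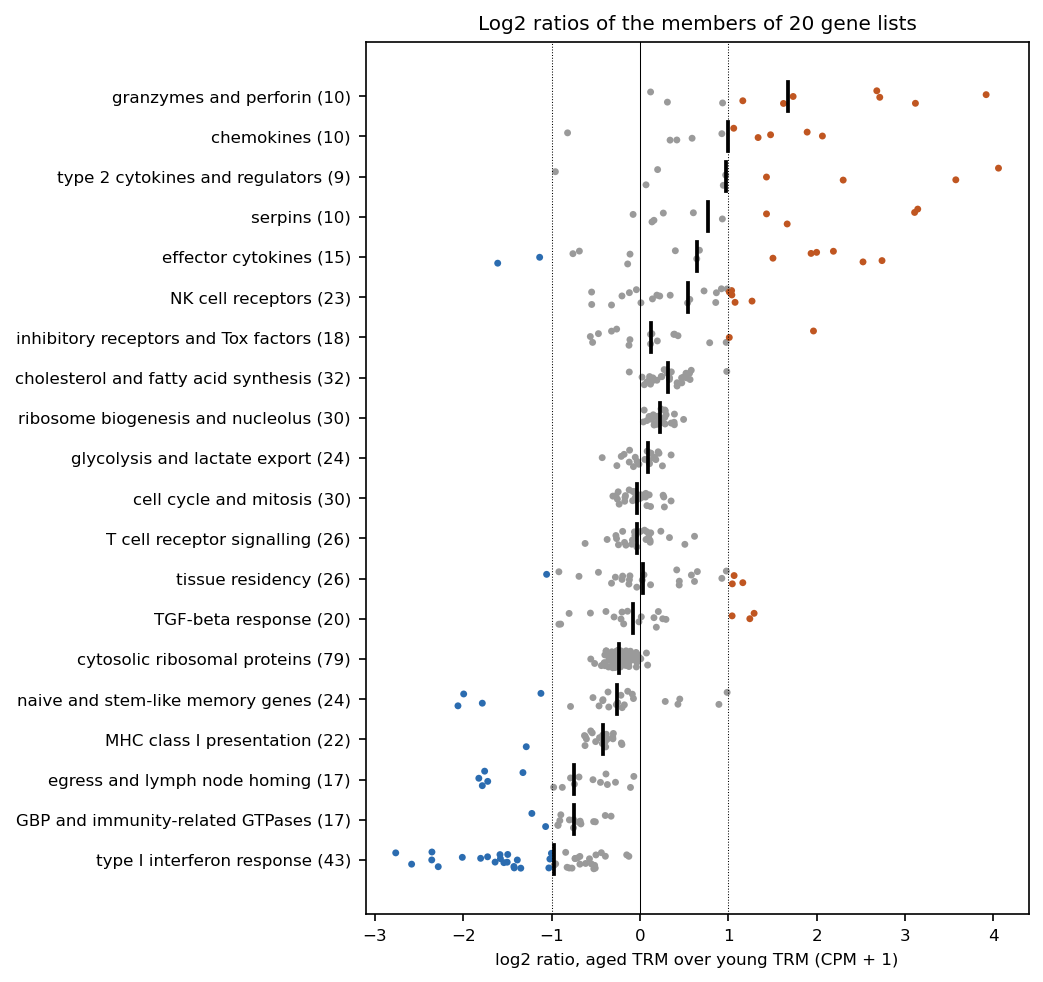
Log2 ratio of aged to young TRM, with 1 CPM added, on the x axis for the tested members of 20 gene lists on the y axis (number tested in parentheses); dots are genes, orange if they rose and blue if they fell, black bars are list medians, and dotted lines mark -1 and 1. Of the lists shown, granzymes have the highest median at 1.68 and type I interferon genes the lowest at -0.97.

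Metallothioneins, small proteins that bind zinc, rose together. Mt1 was at 10.9 and 8.92 CPM in young TRM and 54.2 and 57.6 CPM in aged TRM, 5.69-fold higher (interval 5.08 to 6.39). Mt2 was at 4.83 and 5.44 CPM and then 37.9 and 38.1 CPM, 7.36-fold higher (interval 6.31 to 8.63). These were the 2 called genes among 10 metallothionein and zinc transporter genes, and young TCR had 50.1 CPM of Mt1 and 29.1 CPM of Mt2. The ATF4 list had 2 of 30 genes that rose, Stc2, a secreted glycoprotein (20.5 to 52.6 CPM), and Cth, which makes cysteine (29.3 to 74.2 CPM). Of 23 lipid genes Cd36, a fatty acid receptor, rose from 0.426 to 3.91 CPM, and of 14 purinergic genes Bst1, which consumes NAD, rose from 1.28 to 7.99 CPM. Among 23 glycosyltransferases, St6gal1, which adds terminal sialic acid, was at 44.9 and 44.3 CPM and then 11.1 and 9.52 CPM, 4.31-fold lower. Gcnt2, which branches poly-lactosamine chains (4.48 to 11.8 CPM), and Galnt3, which starts O-linked chains (12.8 to 27.7 CPM), rose. No gene was called among 32 chromatin regulators.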

How the data were processed

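RNA of 3 samples of mouse CD8+ T cells was sequenced, and young TRM and aged TRM were compared, each with 1 sample and 2 numbered columns. Libraries were made from total RNA and run on an Illumina HiSeq, per the labels' protocols. Bowtie, with no version, and the assembly GRCm38 (mm10) are named per the submitters' processing notes. The counting program, the annotation and the handling of reads that match several genes: not given in the sources used here. The authors deposited an estimated count of reads per gene and column, often not a whole number, and TPM values, per the file headers. A further 24 value columns were not used. No gene encoded by mitochondrial DNA was listed. Of the genes, 17071 were found in the RefSeq table of GRCm38.p6, and 23 symbols that had become dates were restored from gene IDs.

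The 2 columns of each sample, rounded, were added up to 36021887 reads in young TRM and 40385477 in aged TRM, with 15729 and 16115 genes above 0, and scaled with TMM factors of 0.978 and 1.01 (edgeR 4.0.16, R 4.3.3) to CPM. The log2 ratio was taken of CPM + 1. The fold and its 95% Clopper-Pearson interval, from the split of reads between the samples, had nothing added. Both were obtained with scipy 1.17.1, numpy 2.4.6 and pandas 2.3.3 under Python 3.11.15, and figures were drawn with matplotlib 3.10.9. Reads are not independent molecules, so intervals cover counting error only. Tested on simulated data with counting error alone, the rule found 49 of 50 genes with a 3-fold rise and 50 of 50 with a 3-fold fall. The changed genes were drawn from those with a mean of at least 2 CPM, so changes in weaker genes were not covered. The rule called 0 of 50 with a 1.5-fold rise, 0 of 50 with a 1.5-fold fall and 0 of 11242 left as they were. A 1.5-fold change lies below the 2-fold cut of the rule.

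The comparison, the 60 gene lists and the choice of named genes were made with earlier results of these data known. Of 1337 list entries 19 were not in the table used, Zfp683, Mx1 and Mx2 among them. Named were the 20 called genes with the highest and the 20 with the lowest log2 ratios of at least 10 CPM, predicted genes and receptor segments left out, then up to 4 called members of each list in each direction (all where at most 5 were called), and a fixed list with Itgae, Cd69, Tgfbr1 and others. Members that were not called, and Mcpt2, Mcpt8 and Samhd1, were named in addition to complete a description, after their values were seen. A few genes that the rule takes are not reported here. Alternatives were scaling by totals or by DESeq2 1.42.0 size factors, other pseudocounts and filters, TPM, and each column alone.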

Additional observations from a re-analysis of the deposited data

How the results depend on the processing

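With 1 sample per age, the spread between mice is not measured, and no sample could be left out in turn. No paired analysis was possible because each group has 1 sample and the labels give no shared replicate numbers. Depth limits mainly weakly expressed genes: 3 reads equal 0.0851 CPM in young TRM and 0.0738 CPM in aged TRM. The counts of called genes moved by more than 1.5 times in 4 cases. With 5 CPM added before the ratio, 87 genes rose and 62 fell, against 260 and 133 with 1 CPM, and with 0.25 CPM added 426 rose, since the added value decides how far weakly expressed genes must move. Among genes of at least 10 CPM, 123 rose. The counts were 280 and 123 with scaling by totals, 259 and 133 with DESeq2 size factors, 250 and 119 in the deposited TPM, 282 and 139 from the first columns alone and 309 and 153 from the second. Of 107 named genes with a call, 34 lost it with 5 CPM added, 6 in TPM (Ccr6, Cdh1, Eda2r, Ltbp3, Ms4a1 and Prdm1), 6 in the first columns alone (Batf3, Cd160, Gcnt2, Hbb-bt, Klra1 and Klre1), 8 in the second (Acvr1, Ccr6, Galnt3, Ltbp3, Ms4a1, Prdm1, Rgs2 and Tnfrsf25) and 1 with totals (Ccr6). None changed direction under these alternatives. Of the named genes without a call, Lag3 was called higher under totals, in TPM and in the first columns, Il7r in the first columns and Cdkn2a in TPM. The median log2 ratio changed sign for 9 of 59 lists with scaling by totals and for 13 in TPM. In TPM the TGF-beta list went from -0.08 to 0.03 and the cell cycle list from -0.04 to 0.03. Tissue residency went from 0.04 to -0.004 among genes of at least 10 CPM.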

Other observations

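Of the genes that rose, 192 were in none of the lists, and of those that fell, 89. The genes in this and the next paragraph that are not among the 20 with the highest or lowest log2 ratios were chosen after their values were seen. Trim30c, a member of the TRIM30 family, had the lowest log2 ratio of the annotated genes of at least 10 CPM and was at 27.0 and 25.6 CPM in young TRM and 2.66 and 2.16 CPM in aged TRM, 10.9-fold lower (interval 8.83 to 13.5). The PYHIN genes Ifi203 (266 to 93.8 CPM) and Ifi214 (20.6 to 7.87 CPM) fell, and so did Phf11b (82.9 to 38.8 CPM) and Tlr7, a sensor of single-stranded RNA (35.7 to 14.2 CPM). Lrrc32, which holds latent TGF-beta at the surface of regulatory T cells, fell from 22.4 to 7.28 CPM, as did Cd24a, a surface protein of immature lymphocytes (36.5 to 10.9 CPM). Dntt, the polymerase that adds untemplated bases to antigen receptor genes during their assembly, was at 3.88 and 3.79 CPM in the young columns and 0.296 and 0.393 CPM in the aged columns, 11.1-fold lower (interval 6.41 to 20.9). Genes best known from other tissues also fell: Drc1, a part of cilia, from 40.6 to 5.71 CPM, Gata1, an erythroid factor, from 18.0 to 3.62 CPM, Col15a1, a basement membrane collagen, from 16.5 to 3.12 CPM, and Fbln2, a matrix protein, from 11.6 to 2.53 CPM. Myrip (12.2 to 2.09 CPM), Prickle1 (10.6 to 1.75 CPM) and Rap1gap2 (12.6 to 2.48 CPM) completed the annotated genes with the lowest ratios.

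Among genes that rose outside the lists, Bmpr1a, a receptor for bone morphogenetic proteins, was at 6.48 and 5.74 CPM in young TRM and 34.7 and 29.9 CPM in aged TRM, 5.32-fold higher. Inhba, which encodes an activin subunit of the same ligand superfamily, rose from 0.710 to 7.87 CPM. Enpp2, the autotaxin that makes lysophosphatidic acid, was at 0.191 and 0.103 CPM and then 6.86 and 7.90 CPM. Lilrb4a, an inhibitory receptor, rose from 22.7 to 76.3 CPM, and Crem, a cyclic AMP-responsive factor, from 26.3 to 64.7 CPM. Asb2 (2.98 to 16.8 CPM), Slc15a3 (2.61 to 15.4 CPM), Nkain1 (1.70 to 11.4 CPM) and Ugt1a7c (1.84 to 12.9 CPM) were also among the 20 with the highest ratios. H2-Eb1, an MHC class II chain of antigen-presenting cells, rose from 5.88 to 13.8 CPM, in the same direction as Ms4a1 and Pax5. The predicted gene Gm40892 was at 35.7 and 34.3 CPM in young TRM and 353 and 353 CPM in aged TRM, 10.1-fold higher (interval 9.54 to 10.7), a ratio above that of Ifng. Another predicted gene, Gm46353, was at 0 and 19.6 CPM in the young columns and 0 in both aged columns, so its call rests on 1 column.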
